A study of Mus musculus with 38 samples.

Results

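The regions described here were H3K27ac peaks that appeared in the week 12 (W12) list of SOX9-expressing skin epidermal stem cells for the first time and that overlapped an H3K4me1 domain of the W12 list. They were chosen from the deposited lists as the W12 H3K27ac peaks that shared no base with any peak of the day 0 (D0), W1, W2 or W6 H3K27ac lists and shared at least 1 base with a W12 H3K4me1 domain. Of 33985 W12 peaks, 6582 met this rule, which was 19.4% of the list, and 13856 (40.8%) were first called at W12 wherever they lay. No peak was dropped for a low value, so the 6582 regions are all that the rule gave. Of them, 5251 overlapped an H3K4me1 domain at D0, before SOX9 was induced, and 1331 did not. All 5 H3K27ac lists and the W12 H3K4me1 domains chose these regions, so their lack of earlier H3K27ac and their W12 H3K4me1 are not results.

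The study measured histone marks by MINT-ChIP, in which chromatin of each sample is barcoded and pooled before immunoprecipitation, in epidermal stem cells sorted from male mouse back skin (CD31, CD45, CD117 and CD140a negative, CD49f high, CD34 negative, Ly6A high). All animals, D0 included, carried K14rtTA and TRE-myc-Sox9, in which the Krt14 promoter of basal epithelial cells drives the doxycycline (DOX) responsive activator of a Sox9 transgene. Mice received DOX by injection at P21 and then in the feed, for 1, 2 or 6 weeks, and D0 cells had no DOX. Per the study's methods, the W12 cells came from newborn skin of this genotype grafted onto immunocompromised Nude female hosts and induced after healing, so week 12 and grafting cannot be told apart in these lists. A cultured series held H3K4me1 of keratinocytes without DOX and with DOX-induced wild-type SOX9 (WT), SOX9 without its DNA-binding HMG domain (noHMG) or SOX9 without its transactivation domain (noTA). In the paper, each SOX9 form was brought by lentivirus into cultured epidermal stem cells that carried K14rtTA.

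H3K4me1 is a mark of enhancers that can be present before they are active, and it can stand for long periods without transcription nearby. H3K27ac is added by the acetyltransferases p300 and CBP when an enhancer or promoter is in use. An element with H3K4me1 alone is commonly called poised or primed, and its gain of H3K27ac is read as activation. SOX9 is the transcription factor that specifies hair follicle stem cells, and its lasting expression in epidermal stem cells drives them towards a state like basal cell carcinoma.

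The authors merged the replicates and both MNase digests of each time point into 1 list per mark, so every value below belongs to 1 pooled list. Per the labels, both W12 replicates were in the same libraries as W2 replicate 1 and were separated from it by barcode, while the other replicates of the earlier lists were in other libraries. Against D0, W1 and W6, time and library thus cannot be told apart, and part of the W2 list shares the W12 libraries. There is no spread between replicates, and no p-value is given. Where a range in parentheses follows a share, it is the exact 95% Clopper-Pearson interval, which covers counting error only. From D0 to W12, in time order, the H3K27ac lists held 30268, 32544, 29081, 30516 and 33985 peaks and the H3K4me1 lists 87287, 69439, 73415, 79556 and 74316 domains. Start sites of all 6 basal epidermal markers (Krt5, Krt14, Itga6, Itgb4, Trp63, Col17a1) had an H3K27ac peak within 1000 bp in every list. None of 7 immune or 7 fibroblast markers did in any list, and of 6 endothelial markers 0 did at D0 and W2, 1 at W1 (Tek), 1 at W6 (Pecam1, which encodes the CD31 used to exclude cells) and 2 at W12 (Pecam1 and Emcn). Of 5 melanocyte markers 1 or 2 did in every list (Pmel at D0 and W2, Pmel and Dct at W1, Mitf at W6 and W12), and of 5 muscle markers Acta2 did in every list. Of 6 hair follicle stem cell markers, in time order, 2, 2, 4, 2 and 1 did. The part of host or other cells in the regions was not tested.

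The sequences at the summits of the strongest regions are shown so that the highest values can be read beside the DNA they lie on. The regions of highest fold on each side of the D0 split are printed first, in a short window centred on the summit, on the plus strand of GRCm38 (mm10), with matches to the AP1, RUNX, SOX and TEAD motifs searched in these data in capitals. The region of highest fold lay over a UTR and is not printed.

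Denr, chr5:123903282-123903432, marked at D0: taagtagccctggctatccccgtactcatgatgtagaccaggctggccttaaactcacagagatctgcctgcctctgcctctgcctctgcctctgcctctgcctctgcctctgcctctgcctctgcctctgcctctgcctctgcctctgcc
Dnah17, chr11:118146068-118146218, marked at D0: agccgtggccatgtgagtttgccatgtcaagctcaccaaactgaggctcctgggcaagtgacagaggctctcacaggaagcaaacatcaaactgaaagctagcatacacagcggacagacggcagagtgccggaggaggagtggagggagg
Gm18489, chr9:116809954-116810104, marked at D0: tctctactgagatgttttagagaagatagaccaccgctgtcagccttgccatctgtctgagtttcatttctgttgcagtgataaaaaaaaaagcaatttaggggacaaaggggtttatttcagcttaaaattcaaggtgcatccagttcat
Lrp6, chr6:134570212-134570362, not marked at D0: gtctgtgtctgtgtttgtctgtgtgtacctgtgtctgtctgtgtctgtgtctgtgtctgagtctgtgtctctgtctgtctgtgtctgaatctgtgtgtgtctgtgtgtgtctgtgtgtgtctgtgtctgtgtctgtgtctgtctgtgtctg

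None of these 4 windows held a match to the AP1, RUNX, SOX or TEAD letters. The windows near Denr and Lrp6 held runs of short tandem repeats. The reference genome soft-masks 97.4% of the bases near Denr and 100% of those near Lrp6 as repeats, against 13.9% near Dnah17 and 49.7% near Gm18489. The second set below shows the 4 of the 20 named regions with an AP1 match in the searched window, in a window of 299 bp, since AP1 was the motif whose place relative to the summit stood out. The third set shows both W12 regions at the start of Procr, a gene with no earlier H3K27ac peak.

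Adgrl3, chr5:81076871-81077169, marked at D0: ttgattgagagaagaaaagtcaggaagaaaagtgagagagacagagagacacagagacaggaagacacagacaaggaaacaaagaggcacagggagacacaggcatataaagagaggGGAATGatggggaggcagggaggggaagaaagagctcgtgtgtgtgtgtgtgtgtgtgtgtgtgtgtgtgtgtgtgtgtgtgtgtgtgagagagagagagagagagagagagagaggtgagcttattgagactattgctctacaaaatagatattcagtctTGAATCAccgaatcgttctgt
Gm14377, chr7:47113300-47113598, not marked at D0: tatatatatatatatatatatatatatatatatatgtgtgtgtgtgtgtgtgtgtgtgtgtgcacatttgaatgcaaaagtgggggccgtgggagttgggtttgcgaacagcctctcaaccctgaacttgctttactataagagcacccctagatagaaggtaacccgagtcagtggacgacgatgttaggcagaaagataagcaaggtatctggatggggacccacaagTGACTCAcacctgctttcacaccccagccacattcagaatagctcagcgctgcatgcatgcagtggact
Gm42920, chr3:38383094-38383392, not marked at D0: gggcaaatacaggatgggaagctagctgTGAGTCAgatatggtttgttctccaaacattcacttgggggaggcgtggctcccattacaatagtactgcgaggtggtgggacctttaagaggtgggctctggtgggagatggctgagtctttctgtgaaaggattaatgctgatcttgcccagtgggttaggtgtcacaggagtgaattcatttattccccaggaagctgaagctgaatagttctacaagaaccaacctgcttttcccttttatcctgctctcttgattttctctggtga
Gm31107, chr14:68035621-68035919, not marked at D0: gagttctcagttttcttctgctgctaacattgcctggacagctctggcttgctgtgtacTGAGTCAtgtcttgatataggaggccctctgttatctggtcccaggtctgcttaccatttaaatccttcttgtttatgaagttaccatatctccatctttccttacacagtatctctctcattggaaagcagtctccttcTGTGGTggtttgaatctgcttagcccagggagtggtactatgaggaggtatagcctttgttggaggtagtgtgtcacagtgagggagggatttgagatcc
Procr, chr2:155750779-155750929, marked at D0: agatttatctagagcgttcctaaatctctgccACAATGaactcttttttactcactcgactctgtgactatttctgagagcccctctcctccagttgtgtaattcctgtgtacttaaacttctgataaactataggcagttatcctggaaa
Procr, chr2:155751751-155751901, marked at D0: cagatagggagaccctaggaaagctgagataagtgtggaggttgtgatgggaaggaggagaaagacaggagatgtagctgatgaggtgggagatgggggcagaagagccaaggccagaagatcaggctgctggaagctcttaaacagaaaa

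Most of these regions had H3K4me1 at D0, as did most of the W12 H3K4me1 list, of whose domains 84.4% (84.1 to 84.6) overlapped a D0 domain. At D0, H3K4me1 domains lay over 79.8% of them (78.8 to 80.7). The share was 75.9% (74.8 to 76.9) in the W1 list, 77.6% (76.6 to 78.6) in the W2 list and 87.7% (86.9 to 88.5) in the W6 list. W12 peaks that had been called in an earlier H3K27ac list and lay in W12 H3K4me1 were marked at D0 more often, at 96.5% (96.2 to 96.8), and W12-first peaks outside W12 H3K4me1 far less often, at 10.9% (10.2 to 11.6). Peaks first called at an earlier time inside H3K4me1 of that time were also more often marked at D0, namely 96.1% of 12466 at W1, 89.4% of 6979 at W2 and 89.6% of 5264 at W6. Among the compared sets inside H3K4me1, the W12-first regions therefore held the largest share without H3K4me1 at D0. The sets are not like for like, since a peak first called at an earlier time had fewer lists to be absent from. The lists also differ in depth, and only W12 came from grafts.

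By the first list with H3K4me1, 5251 regions had it at D0, 364 (5.53%) gained it by W1, 369 (5.61%) by W2, 291 (4.42%) by W6 and 307 (4.66%) were first seen with both marks at W12. In all, 4046 regions (61.5%) were in a domain in each of the 4 earlier lists. Its calls came and went between lists, since 1205 regions marked at D0 were missing from at least 1 of the W1, W2 and W6 lists, and 115 of these were missing from all 3. Of the regions without a D0 domain, which the split sets to none at D0 and the rule to all at W12, the share in a domain was 27.3% (25 to 29.8) at W1, 49.3% (46.6 to 52.0) at W2 and 66.2% (63.6 to 68.7) at W6. The lists of those times also grew in length, from 69439 to 79556 domains.

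**Figure D1:**
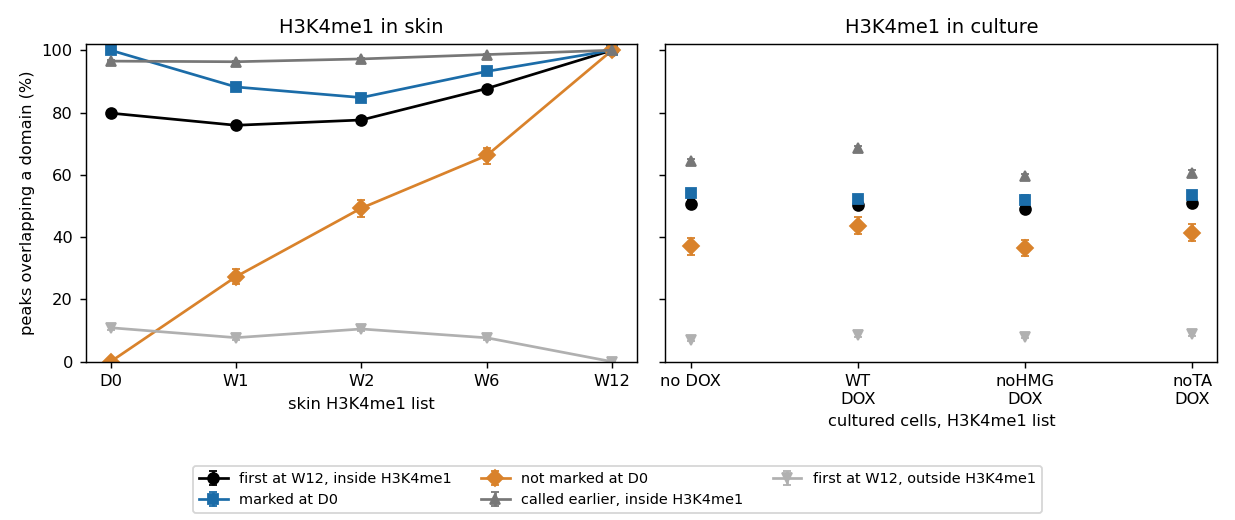
Share of W12 H3K27ac peaks (y axis, percent) that overlapped an H3K4me1 domain in each skin list (left) and each culture list (right), for the W12-first regions inside H3K4me1, the same regions split by H3K4me1 at D0, and both comparison sets of W12 peaks. Bars are exact 95% intervals for counting error. The regions not marked at D0 were in a domain at 27.3% in W1, 49.3% in W2 and 66.2% in W6.

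Not all of the 1331 regions without H3K4me1 at D0 lay in newly founded domains. The W12 domain of 538 of them (40.4%, 37.8 to 43.1) overlapped a D0 domain elsewhere along its length, and these regions lay a median of 629 bp from the nearest D0 domain. The other 793 were in W12 domains with no D0 counterpart, at a median of 8669 bp from the nearest D0 domain. Over the 4046 regions marked at every time, the median domain width was 5599 bp in both the D0 and the W12 list, with 4999 bp in the W1 list and 5399 bp in those of W2 and W6. At W12 it was wider than at D0 for 45.3% of these regions and narrower for 49.6%. At the 17111 W12 peaks called earlier and marked at every time, the median domain width was 7599 bp at D0 and 6799 bp at W12.

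The regions were weak peaks, with the same median fold on both sides of the D0 split. The rule itself favours weak peaks, since a peak near the calling limit is more easily missed in the earlier lists. Differences in strength and width from the peaks called earlier are thus in part set by the rule. The fold enrichment at the summit, as deposited, had a median of 4.25 in regions with and without H3K4me1 at D0 (quartiles 3.54 and 4.96 in both). It was 6.38 in W12 peaks called earlier inside H3K4me1 and 3.92 in W12-first peaks outside it. The steps between fold values gave the number of stacked reads at the summit for 5081 of the 6582 regions, and its median was 5, against 8 in the peaks called earlier. It was recovered for 4224 of the 5251 regions marked at D0 and 857 of the 1331 not marked, so the sides are covered unequally. At 51.2% of those 5081 regions the pileup was 5 or less, against 16.5% of the peaks called earlier. Widths ran from 302 to 2406 bp with a median of 396 bp, against 641 bp in the peaks called earlier. Only 29 regions reached a fold of 10, 5 stood among the 1000 best-ranked W12 peaks, and 24.9% stood in the better-ranked part of the list above its median.

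**Figure D2:**
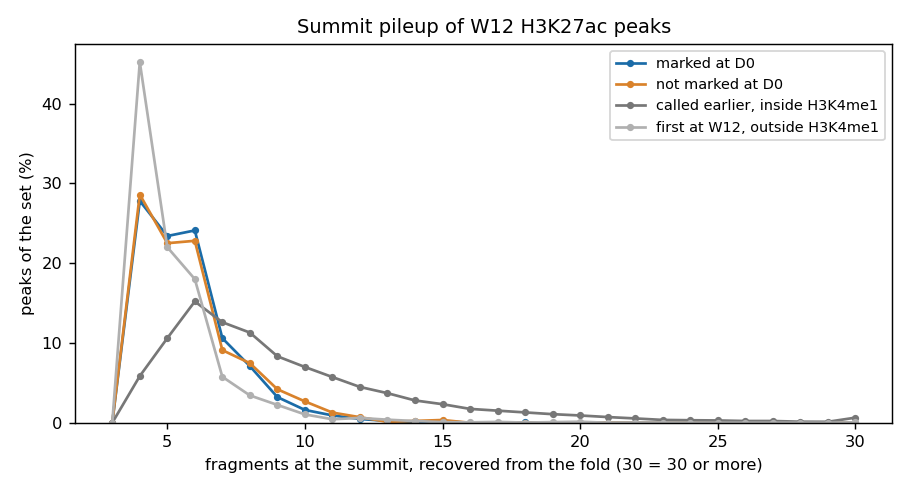
Percent of the peaks in each set (y axis) by the number of stacked reads at the W12 summit recovered from the fold values (x axis, 30 standing for 30 or more), for peaks whose fold lay on a whole step. The 4224 regions with and 857 without H3K4me1 at D0 whose value was recovered have the same median of 5, and peaks called earlier inside H3K4me1 have a median of 8.

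Depth sets how firmly "first at W12" can be read. From D0 to W12, in time order, the background pileup recovered from the fold steps was 0.501, 0.299, 0.425, 0.677 and 0.412, and the smallest pileup called was 4, 3, 4, 5 and 4. Each region's W12 signal was taken from its fold at the list's background, also where no whole pileup was recovered, and is approximate there. With this signal scaled to the earlier backgrounds, the scaled value was at or above the smallest called pileup for all 6582 at D0 and W6. This held for 93.9% at W2 and 70.6% at W1. The comparison is of expected values and leaves out counting error, which is large at so few reads. A region above the limit could thus still go uncalled at equal signal. The 4648 regions that passed for all 4 earlier lists were the same 4648 that had a q-value of at most 0.01. At a weaker region, absence from the W1 list was not detectable as a difference at this depth.

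Peaks just inside and just outside the rule differed in fold by about a step of the pileup. The 342 regions within 100 bp of an earlier H3K27ac peak had a median fold of 4.25 (3.23 to 9.92), and the 407 W12 peaks in H3K4me1 that shared fewer than 100 bp with every earlier list had 4.96 (3.11 to 11.3). The 113 regions with fewer than 100 bp in a W12 domain had a median fold of 4.25, and the 103 W12-first peaks within 100 bp of a domain had 3.57.

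The regions lay mostly in introns and away from start sites. By the GENCODE M21 annotation, 3697 summits (56.2%, 55.0 to 57.4) were in introns, 2130 (32.4%, 31.2 to 33.5) between genes, 494 (7.51%, 6.88 to 8.17) within 1000 bp of a start site and 261 (3.97%, 3.51 to 4.47) in other exon sequence. Of all regions, 81.5% (80.6 to 82.4) were distal, more than 2500 bp from any start site, against 53.9% (53.2 to 54.7) of the W12 peaks called earlier inside H3K4me1 and 91.0% (90.4 to 91.7) of the W12-first peaks outside it. Regions without H3K4me1 at D0 were more often distal, at 87.8% (85.9 to 89.5) against 79.9% (78.8 to 81.0), more often between genes, at 40.4% against 30.3%, and lay at a median of 15295 bp from a start site against 10268 bp. The intervals of these shares did not overlap. The place of peaks first called at an earlier time was not measured, so the distal share cannot be called particular to W12.

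**Figure D3:**
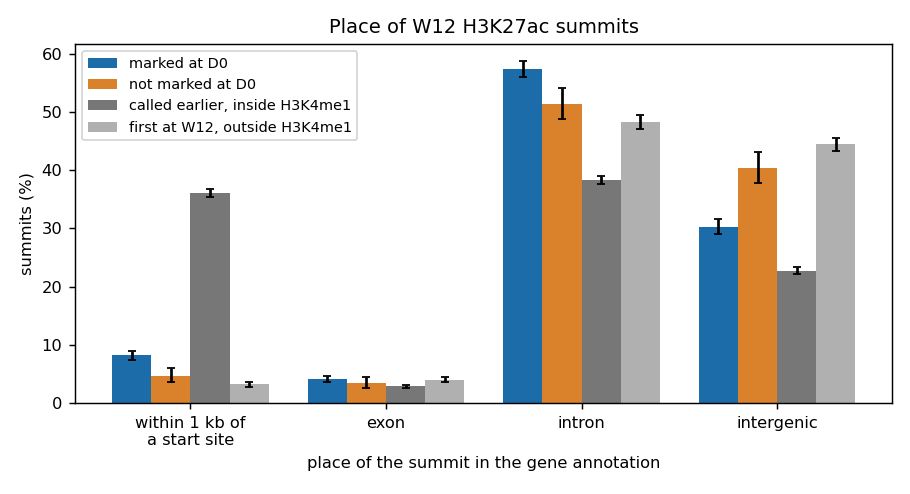
Percent of summits (y axis) within 1 kb of an annotated start site, in an exon, in an intron or between genes, for the regions with and without H3K4me1 at D0 and both comparison sets. Bars are exact 95% intervals for counting error. Peaks called earlier had 36.1% of summits near a start site, against 8.21% and 4.73% for the regions with and without H3K4me1 at D0.

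The regions made up between 17.4% (chromosome 11) and 21.5% (chromosome 1) of the W12 peaks of each autosome, 12.3% of those of the X chromosome and none of the 32 on the Y chromosome. Soft-masked repeats covered a mean of 20% of the bases within 150 bp of their summits and 25.2% of windows 2 kb to either side. The mean was 34.9% in W12-first peaks outside H3K4me1 and 14.1% in peaks called earlier. The mean G and C content was 46.8%, against 51.7% in the peaks called earlier.

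Part of the regions lay near peaks called at an earlier time. The nearest earlier H3K27ac peak was a median of 3208 bp away, 2087 regions (31.7%) had one within 1000 bp, and 2017 (30.6%) had none within 10000 bp. The W12 domain around 51.4% of the regions (50.2 to 52.6) held an H3K27ac peak at some earlier time. Of all W12 domains 42% did, and of the domains with a region 49.8%. This was so for 57.5% (56.2 to 58.9) of the regions with H3K4me1 at D0 and for 27.3% (24.9 to 29.8) of those without. By single list, 34.2% of the regions were in a domain acetylated at D0, 35.4% at W1 and W2 and 37.5% at W6.

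The regions occupied 6064 of the 74316 W12 domains, of which 5612 held 1 region, 54 held 3, 6 held 4 and the rest held 2. These domains had a median width of 4399 bp against 2599 bp over all W12 domains, and wide domains have more room for a peak. The 3042 of them with no earlier H3K27ac peak had a median of 2799 bp and stood at a median rank of 48.6% of the list by p-value, near its middle. The 3022 with an earlier peak had a median of 6999 bp and a median rank of 10.8%. Of the 6064 domains, 87.5% (86.6 to 88.3) overlapped a D0 domain, against 84.4% of all W12 domains and 98.4% of the domains with a W12 peak called earlier.

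About as many regions were marked in cultured keratinocytes with SOX9 as without it. An H3K4me1 domain covered 50.6% of them (49.4 to 51.8) without DOX, 50.4% (49.2 to 51.7) with WT SOX9, 48.9% (47.6 to 50.1) with noHMG and 51.1% (49.9 to 52.3) with noTA. The peaks called earlier inside H3K4me1 stood at 64.4% without DOX and 68.5% with WT SOX9, and the W12-first peaks outside it at 7.11% and 8.43%. The lengths of the culture lists were not compared. The D0 split used a list without SOX9 induction. Differences between its sides in culture without DOX, and in the change with SOX9, can thus follow in part from the split. Of the regions without H3K4me1 at D0, 37% (34.4 to 39.6) were marked without DOX and 43.7% (41.0 to 46.4) with WT SOX9. The shares were 36.4% (33.8 to 39.0) with noHMG and 41.4% (38.7 to 44.1) with noTA. The regions with H3K4me1 at D0 had 54.0% (52.7 to 55.4) without DOX and 52.1% (50.8 to 53.5) with WT SOX9. Marked with WT SOX9 and not without DOX were 14.7% (12.8 to 16.7) of the regions unmarked at D0 and 8.21% (7.48 to 8.98) of the regions marked at D0, while 7.89% and 10.1% had the opposite pattern. Of the peaks called earlier inside H3K4me1, 10.3% were marked with WT SOX9 and not without DOX, and 6.09% had the opposite pattern. In W12-first peaks outside H3K4me1 these shares were 4.22% and 2.9%. No culture list marked 2199 regions (33.4%). Each culture condition was 1 pooled list, so the spread between cultures is unknown.

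Among 16 motifs searched on both strands within 150 bp of each summit, 2 were more frequent in the regions than in windows of the same length 2 kb to either side by non-overlapping intervals. AP1 (TGANTCA, the site of FOS and JUN dimers widened to any middle base) was in 11.7% of the regions (10.9 to 12.5) against 9.56% of the windows (9.07 to 10.1), 9.28% of all W12 peaks and 7.81% of the 300 bp RefSeq promoters. KLF (GGGTGTG) was in 7.87% (7.23 to 8.55) against 6.62% (6.21 to 7.06), with 7.76% of all W12 peaks and 7.95% of the promoters. RUNX (TGTGGT) was in 23.2% (22.2 to 24.3) against 22.6% (21.9 to 23.4), with 19.7% of all W12 peaks and 16.8% of the promoters. SOX (ACAATG) was in 15.7% (14.8 to 16.6) against 16.0% (15.3 to 16.6), with 13.2% of all W12 peaks and 12.6% of the promoters. The other 12 motifs searched (TEAD, GATA, TCF/LEF, ETS, NFI, FOX, SP, ZEB/SNAI, GLI, CTCF, NF-kB and p63) also had overlapping intervals. Peaks first called at W6 inside W6 H3K4me1 had AP1 in 10.7% (9.85 to 11.5), an interval that overlaps that of the regions. They had KLF in 8.43% (7.7 to 9.22), RUNX in 21.2% (20.1 to 22.3) and SOX in 13.6% (12.7 to 14.5). Of the regions, 57.4% held none of the AP1, RUNX and SOX letters, and 2.51% held AP1 with RUNX.

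The AP1 matches were denser beside the summit than at it, a pattern examined after the matches had been seen. Within 100 bp of the summit the regions had 0.366 AP1 matches per kb (exact Poisson interval 0.334 to 0.4), close to the 0.337 (0.319 to 0.355) of the windows 2 kb away. Between 100 and 300 bp from the summit they had 0.63 (0.6 to 0.661), and between 300 and 500 bp 0.599 (0.569 to 0.629). Peaks called earlier inside H3K4me1 had the same form, with 0.283 within 100 bp and 0.613 at 100 to 300 bp. W12-first peaks outside H3K4me1 stayed between 0.269 and 0.32 in all 3 distance classes. Regions unmarked at D0 had 0.695 AP1 matches per kb at 100 to 300 bp and regions marked at D0 had 0.613, with overlapping intervals (0.626 to 0.77 and 0.58 to 0.648). RUNX matches were level, at 0.94, 0.892 and 0.926 per kb over the same classes, and SOX matches were at 0.602, 0.59 and 0.575. In the printed windows, the middle of the AP1 letters stood 132 bp from the summit near Adgrl3, 84 bp near Gm14377, 118 bp near Gm42920 and 87 bp near Gm31107.

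**Figure D4:**
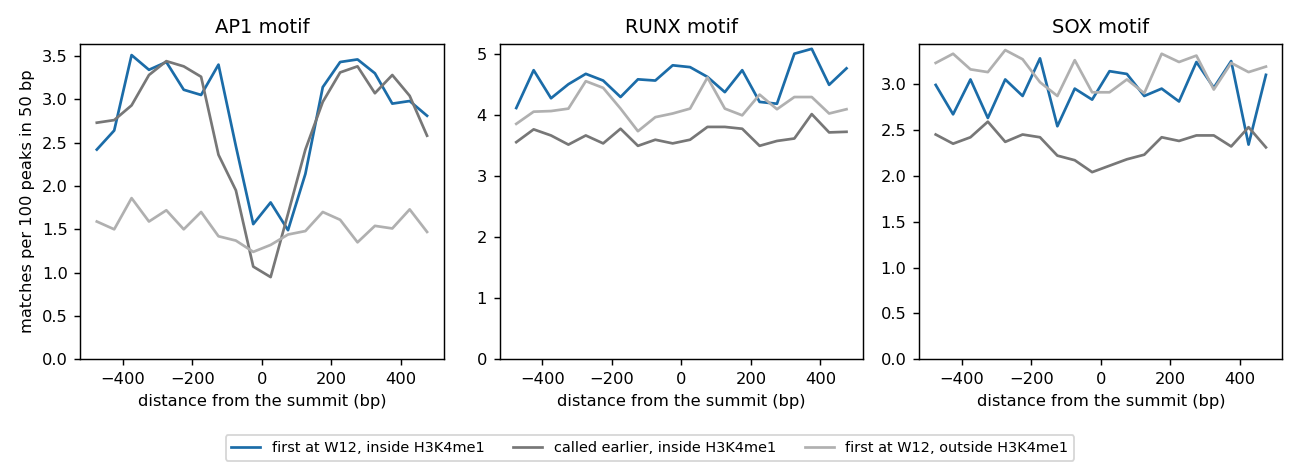
Matches per 100 peaks in each 50 bp bin (y axis) by distance from the W12 H3K27ac summit (x axis, bp) for the AP1, RUNX and SOX letters, in the W12-first regions inside H3K4me1 (blue), W12 peaks called earlier inside H3K4me1 (dark grey) and W12-first peaks outside H3K4me1 (light grey). The AP1 line of the regions is lower at the summit (0.366 matches per kb within 100 bp) than at 100 to 300 bp (0.63), while the RUNX and SOX lines stay level.

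The 10 highest-fold regions marked at D0 ran from a fold of 21.3 to 11.3. The first was a 330 bp peak in an exon annotated 7348 bp from the start site of Gm9768 (chr4:152016967-152017296), which had 29 stacked reads and was in H3K4me1 at D0 and W1 but not at W2 or W6. Next came a repeat-covered peak 3485 bp from Denr (fold 18.4), a 1121 bp peak in an intron of Dnah17 (17.0, chr11:118145412-118146532) and intronic peaks nearest to Gm18489 (16.3) and Adgrl3 (14.9), a latrophilin adhesion receptor. The Dnah17 peak lay 32375 bp from any earlier H3K27ac peak, and its H3K4me1 was called at D0, W6 and W12 and in all 4 culture lists. The others were nearest to Smg9 and AC109138.11 (13.5 each), AC122536.1 (12.8), 2610528A11Rik and Smad7 (11.3 each). The peak nearest AC122536.1 (chr17:94001491-94003067) was 1577 bp wide and lay 390676 bp from the nearest earlier H3K27ac peak, yet it was marked by H3K4me1 at D0, W1, W6 and W12. More regions shared the fold of 11.3 than the 2 named, and q-value and width broke the tie.

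Without H3K4me1 at D0, the 10 highest folds ran from 13.1 to 9.21. They were nearest to Lrp6 (13.1), Sgms1, Gm14377 and Gm26228 (11.3 each), Tns4, Gm42920 and Gm31107 (10.6 each), Gm15387 (9.92) and AL805899.2 and 4933416M07Rik (9.21 each). Of them, 6 were intergenic and 4 intronic. The region near Lrp6, a WNT co-receptor, had H3K4me1 from W1 on, as did the one near Tns4, a focal adhesion protein. Those near Sgms1 and Gm26228 had it at W12 alone, where only part of the peak overlapped the domain and the summit lay outside it. Summits lay outside the W12 domain in 9.39% of all regions without H3K4me1 at D0, against 2.91% of those with it. Repeats covered most of the searched window at 4 of these 10 regions and at 3 of the 10 marked at D0, against 11.2% of all the regions.

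Of the protein-coding genes nearest to a region, 1893 had 1, 403 had 2 and 118 had 3, and few had more. Long genes and genes with many W12 peaks have more room for regions. By nearest start site, Rora, a nuclear receptor, and Ext1, an enzyme of heparan sulphate synthesis, had 7 each. Adgrl2, Bcr, Elk3, Jag1, Lrrfip1, Sema5a and Vav3 had 6 each. As a part of the W12 peaks nearest to the same gene, these counts ran from 6 of 22 at Vav3 to 6 of 8 at Bcr. Over the whole W12 list the share was 19.4%, but these genes were picked for their number of regions, which favours a high share. All 7 at Rora were marked at D0, with folds from 3.54 to 5.67, while Rora had 16, 16, 5 and 1 H3K27ac peaks nearest to it at D0, W1, W2 and W6 and 16 at W12. Its count was thus lowest at W6. At Sema5a, a semaphorin, the counts were 10, 15, 4 and 2 before W12 and 13 at W12, again with all 6 regions marked at D0. Elk3, an ETS-family transcription factor, had no H3K27ac peak nearest to it at D0, W1 or W2, 5 at W6 and 9 at W12, and 3 of its 6 regions were marked at D0.

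Jag1, a NOTCH ligand, held both 6 nearest regions and 1 of the 6 domains with 4 regions. That domain (chr2:137076801-137087799, 10999 bp) covered the far end of the gene, held 3 H3K27ac peaks at D0 and none at W1, W2 or W6, and its 4 W12 peaks were all among the regions, with folds from 3.92 to 7.79. Of these 4, 3 were marked at D0. The other domains with 4 regions overlapped Bcl11b (83999 bp), a transcription factor of skin and T cells, Shb (57399 bp), Ankrd11 (50199 bp), Pgs1 (44199 bp) and Bag3 (19399 bp), a co-chaperone. All their regions were marked at D0, and each of these 5 domains held H3K27ac peaks in every earlier list, from 1 at Bag3 at D0 and W1 to 26 at Bcl11b at W1 and W6.

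Within the gene body or 10 kb of it, 3927 of 21911 protein-coding genes (17.9%) had at least 1 of the regions, which was 30.3% of the 12942 genes with a W12 H3K27ac peak there. Over all protein-coding genes, the median was 0 regions a gene and 16.9% of the W12 peaks counted were among the regions, a peak near 2 genes being counted for both. The groups below are given against these values as a description, and long genes have more room for a region.

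Of 13 TGF-beta pathway genes, 11 had a region, with a median of 1 a gene, and 21 of their 53 W12 peaks (39.6%, 26.5 to 54.0) were among the regions. Ligands, receptors and effectors were all included. Tgfb1, Tgfb2 and Tgfb3 had 1, 1 and 2 regions, the receptors Tgfbr1 and Tgfbr2 had 1 each, the latent-binding proteins Ltbp1 and Ltbp2 had 3 and 2, and the signal transducer Smad3 had 5. Smad7, an inhibitory SMAD, had 3, the last of them with a fold of 11.3. All 5 regions at Smad3 were marked in all earlier lists and had folds from 3.54 to 8.5, and Smad3 had 10, 6, 6, 7 and 10 H3K27ac peaks over the time course. Skil, a SMAD co-repressor, had 1 (4.96). Each of the 13 genes also had earlier H3K27ac.

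Among 20 cytokine and chemokine genes, 10 had a region, with a median of 0.5 a gene, and 11 of 28 W12 peaks (39.3%, 21.5 to 59.4) were among the regions. Cxcl2, a neutrophil chemokine, had a region at -61 bp from its start site (fold 4.96) that was marked in all earlier lists. The highest was downstream of Il20 (8.5), which had no H3K4me1 at D0 and had it from W1 on. Tnf had 1 region (6.38), and Ccl2, a monocyte chemokine, had 1 (4.96) with no H3K27ac peak in its window at any earlier time.

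The EMT and invasion list had 8 of 19 genes with a region, with a median of 0 a gene and 11 of 53 W12 peaks (20.8%). Of the 8, 4 had no earlier H3K27ac peak in the gene body or 10 kb around it, namely Zeb2, Vim, Mmp9 and Mmp13. Over all protein-coding genes with a region the share without one was 7.16%. Each of the 4 had 1 region. At Zeb2 its fold is the step of 4 stacked reads, under the W12 pileup of 4.13 needed for the smallest W1 call. Zeb2, a repressor of epithelial genes, had 1 region 1595 bp inside its start site (3.54) marked at D0, W1 and W2, and Vim, an intermediate filament of mesenchymal cells, had 1 at -1109 bp from its start (4.25), upstream, marked in all earlier lists. In contrast, the regions at the collagenases Mmp9 (5.67, intronic) and Mmp13 (4.96, -555 bp from its start) had H3K4me1 in no earlier list. Plau, the urokinase, had 2 regions with a fold of 7.08, 1 of them marked at D0, and its receptor Plaur had 2 with 3.54, both marked in all earlier lists.

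In the angiogenesis list 5 of 15 genes had a region, with a median of 0 and 12 of 38 W12 peaks (31.6%, 17.5 to 48.7). Nrp2, a semaphorin and VEGF co-receptor, had 5 regions with folds from 3.92 to 5.4, of which 4 were marked at D0, and Pdgfb had 3, all marked in all earlier lists. Angpt2 had 1 (3.54) with no earlier H3K4me1 and no earlier H3K27ac in its window, though at this fold absence from the W1 list was not detectable.

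Hair follicle stem cell factors had 8 of 15 genes with a region, with a median of 1 and 17 of 89 W12 peaks (19.1%). Tcf7l2 and Nfib had 4 each, and Tcf7l1, Lgr6 and Barx2 2 each, and all 14 were marked in all earlier lists. The strongest was 3698 bp inside Lgr6 (9.92). Lgr5, a stem cell receptor, had 1 region in an intron (4.16) with no earlier H3K4me1, and Cd34, whose product was used to exclude cells in the sort, had 1 (3.11) marked from W2 on. Sox9 itself had none.

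Transcription factors of the RUNX, AP1 and NF-kB list had a region at 6 of 18 genes, with a median of 0 and 16 of 96 W12 peaks (16.7%). Runx1, a hair follicle regulator, had 5, with folds from 3.54 to 7.08. Of these, 3 were marked at D0, 1 from W1 on, and 1, lying 783 bp inside the gene's start (4.71), in no earlier list. Runx2 and Nfkb1 had 4 each, all marked at D0, and Runx3, Atf3 and Rel had 1 each. Hedgehog genes had a region at 3 of 12, with a median of 0 and 8 of 38 W12 peaks (21.1%). Gli2, a transcription factor of the pathway, had 4, all intronic and marked in every earlier list, and all 4 of its W12 H3K27ac peaks were among the regions although it had 5, 7, 13 and 6 peaks before.

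Genes of basal epidermal identity had a region at 7 of 11, with a median of 1 and 14 of 94 W12 peaks (14.9%), among them 4 at Trp63, which encodes the epidermal regulator p63, and 3 at Itga6. The other lists stood lower. Wnt genes had a region at 6 of 18, with 6 of 43 W12 peaks (14%), and EGF receptors and ligands at 4 of 11, with 6 of 54 (11.1%). Epidermal differentiation genes had a region at 2 of 14, with 2 of 32 (6.25%, 0.766 to 20.8), and stress and simple keratins at 1 of 8, with 1 of 17 (5.88%). The median was 0 a gene in these 4 lists.

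Markers of other cell types had single regions. Immune markers had 1 near Ptprc (CD45, -4733 bp from its start, 4.96) and 1 in Itgam (6.38), endothelial markers 1 near Emcn (3.27), fibroblast markers 1 near Dcn (3.11) and melanocyte markers 1 in Mitf (4.96), and none of 5 muscle markers had one. These were 2 of 3 W12 peaks at the immune markers (66.7%, 9.43 to 99.2), 1 of 15 at the endothelial (6.67%), 1 of 4 at the fibroblast (25%) and 1 of 5 at the melanocyte markers (20%), against 16.9% over all protein-coding genes, so the counts are too small to set apart from it. Those near Emcn and Dcn were the only ones in windows with no earlier H3K27ac, though at their folds absence from the W1 list was not detectable.

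At 281 protein-coding genes, which was 7.16% of the 3927 with a region, no H3K27ac peak had been called before W12 in the gene body or 10 kb around it. For comparison, 7.78% of the 12942 genes with any W12 peak had none before. Of the 281, 249 had 1 region, 24 had 2 and 8 had 3 or more, and these 8 were picked out after their values had been seen. Procr, which encodes the endothelial protein C receptor, had 4, all marked at D0, with folds of 4.96, 3.54, 5.67 and 4.96 along the gene's direction. The strongest of them (chr2:155750550-155751062) lay before the start site, and H3K4me1 domains covered 29.6% of the gene and its 10 kb flanks at D0. This coverage was 4.1%, 18.9%, 36.9% and 40.2% in the later lists, in time order. Vcam1, a cell adhesion molecule, had 3 intragenic regions (3.54, 4.96 and 3.54) in 1 W12 domain of 8799 bp. They were marked at D0 and W6 but not at W1 or W2. Lmcd1 had 3 with no H3K4me1 at D0, and 2610528A11Rik had 3 with folds of 11.3, 7.79 and 5.67. Lman1l, Snx30, St6galnac4 and Plce1 had 3 each, with folds from 3.44 to 4.96. A fold of 3.54 is the step of 4 stacked reads, and at equal signal a W12 pileup of 4.13 was needed to reach the smallest pileup called at W1.

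**Figure D5:**
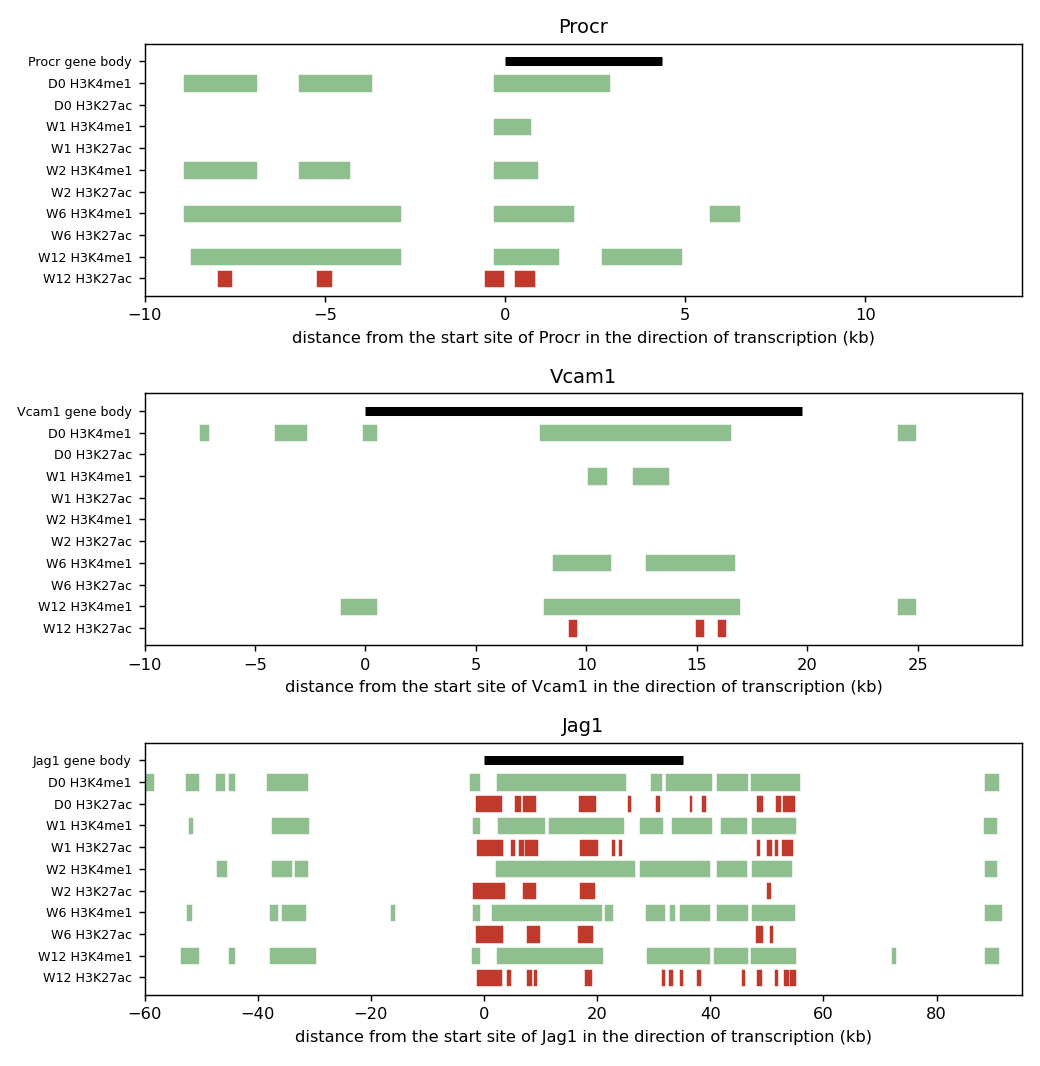
H3K4me1 domains (green) and H3K27ac peaks (red) at each time around Procr, Vcam1 and Jag1, drawn by distance from the gene's start site in the direction of transcription (x axis, kb), with the gene body in black. Procr has 4 and Vcam1 has 3 H3K27ac peaks at W12 and none before, over H3K4me1 already called at D0, and the far end of Jag1 had 3 H3K27ac peaks at D0, none at W1 to W6 and 4 at W12.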

How the data were processed

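MINT-ChIP H3K27ac and H3K4me1 lists of D0, W1, W2, W6 and W12 epidermal stem cells and 4 H3K4me1 lists of cultured keratinocytes were used. The authors demultiplexed reads by barcode and trimmed them with Skewer. Alignment to GRCm38 (mm10) used Bowtie2 (version 2.2.9 in the submitters' processing notes), duplicates were removed with Picard, and replicates and digests were merged with SAMtools 1.9. Peaks were called with MACS2 2.1.1 (H3K27ac) and epic2 (H3K4me1; the notes list SICER 0.0.36). Caller controls and thresholds are not stated in the study's methods. From D0 to W12, in time order, the largest q-value in the H3K27ac lists was 0.0437, 0.0498, 0.0409, 0.0489 and 0.0428.

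The deposited H3K27ac files hold a score, the fold enrichment over background at the summit (a ratio) and the −log10 q-value, and the deposited H3K4me1 files hold a p-value or, for culture, a score, fold and −log10 q per region. No counts were used. The 14 barcode files and the total H3 libraries were not used, and read depth per library is unknown. Stacked reads at a summit were recovered where the fold lay within 0.002 of a whole step of (pileup + 1) / (background + 1).

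Coordinates on 21 chromosomes were intersected with 1 bp as the minimum (Python 3.11.15, numpy 2.4.6, pandas 2.3.3, scipy 1.17.1). Start sites, exons and genes came from the GENCODE M21 basic annotation of GRCm38, sequence and promoters from RefSeq's GRCm38 assembly. Motif windows were 301 bp, distal meant over 2500 bp from a start site, and genes were extended by 10 kb. Functions were tested on simulated lists. Replicates were merged before deposit, so shares carry exact 95% binomial intervals and no test was run. Named regions and genes were the 10 highest folds with and without H3K4me1 at D0, the 5 genes nearest to the most regions, the 5 domains with the most regions (ties included), and genes of 12 fixed lists with a region. Printed sequences were windows at the highest folds of each group, at the named regions with an AP1 match and at the Procr start site, the last 2 sets chosen after their values were seen. Some items are not reported here. 7 marker lists were also counted. The regions, lists and rules were chosen with earlier results of these data known. Alternatives changed the overlap, q-value, score, list length, depth, chromosomes, windows and flanks.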

Additional observations from a re-analysis of the deposited data

How the results depend on the processing

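Of the 9 summary values, each was recomputed under the alternatives that apply to it. The number of regions stayed between 4648 and 7374 in 8 of 9 alternatives and fell to 1539 when W12 peaks were kept only above the median score, which also left 1140 genes with a region. A flank of 50 kb gave 7635 genes. The share with H3K4me1 at D0 was 80.9% with the summit required inside the W12 domain and 75.9% both with earlier peaks widened by 500 bp and with lists of equal length. The distal share was 80.3% with an overlap of 50%, 83.7% with widened peaks, 91.0% at a limit of 1000 bp and 53.3% at 10000 bp. The share in domains with earlier H3K27ac was 58.7% with an overlap of 50% and 38.8% with widened peaks. The AP1 share was 12.6% at a q-value of at most 0.01 and in peaks detectable at every depth, 13.5% above the median score, 3.08% within 50 bp of the summit, 26.8% within 300 bp and 21.4% at 100 to 300 bp from it, a window chosen after seeing the data. RUNX gave 8.52%, 40.9% and 29.6% and SOX 5.56%, 29.2% and 20.7% in those windows, and SOX was 14.5% above the median score. Longer windows hold more matches by construction. The culture share without DOX was 53.2% with an overlap of 50%, 52.0% with the summit inside, 54.0% at the stricter q-value and at detectable depth, 59.3% above the median score and 53.9% with equal lists. The cause of the other shifts was not tested.

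No paired analysis was possible because replicates that share numbers in the labels were merged into 1 list per mark and time before deposit. For the same reason, leaving out each replicate in turn was not run, and the spread between animals is not known.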
